A study of Mus musculus with 2 samples.

Results

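The respiratory chain and citric acid cycle genes were described on 2 cDNA arrays of mouse morulae. The members were the gene spots whose name began with 1 of 16 set phrases, such as NADH dehydrogenase, cytochrome c, ATP synthase, isocitrate dehydrogenase or translocase of, with unnamed expressed sequence tags left out. There were 40 such spots with 39 gene names, of 8735 gene spots with 6113 names on each array. Spots were found for 12 of the 16 phrases, and none for ubiquinol, citrate synthase, fumarate and electron transfer. The members therefore held no spot of complex III under its usual name, and the 2 spots whose names began with succinate were succinate-CoA ligases, so no spot of complex II was named either.

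Each array compared whole B6CBF1 embryos at an age of 4 d that had been injected at the two-pronucleus stage with LIF-siRNA or with scrambled siRNA. Both groups had thus received an siRNA injection, at a labelled dose of 1.0 fmol in 1 pl, while the methods give a different dose. LIF, leukemia inhibitory factor, acts as a cytokine through JAK kinases and STAT3, and siRNA lowers the transcript that it matches. RNA pooled from morulae was labeled with Cy5 for LIF-siRNA and with Cy3 for scrambled siRNA on both arrays. Because the dyes were not swapped, an effect of the dye and an effect of the siRNA cannot be told apart. The sources used here do not say whether each array had its own pool of embryos, so the p-values measure the spread between 2 arrays, which may be technical. One label also mentions untreated embryonic stem cells and 4 replicates, so sample titles, the named RNA of each channel and its dye decided the groups.

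Mitochondria pass electrons from NADH and succinate through complexes I to IV to oxygen, and the proton gradient built on the way drives ATP synthase. The citric acid cycle, fed by pyruvate dehydrogenase, supplies the electrons. Most of the proteins involved are encoded in the nucleus and enter the organelle through the TOM and TIM translocases. The early mouse embryo takes up pyruvate and lactate first and uses more glucose as it approaches the blastocyst.

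All values are Agilent processed signals in arbitrary units, or the log2 ratio of LIF-siRNA over scrambled siRNA, so that a value below 0 means a dimmer spot in LIF-siRNA. The median signal over local background of all gene spots lay between 4.83 and 6.60 in the 4 channels, and 0 gene spots were saturated. The number of spots named for leukemia inhibitory factor was 0, so the knockdown itself could not be checked. All 7 spots of the pre-implantation list were well above background in every channel, with a median log2 ratio of -0.58, from -0.35 on array 1 and -0.77 on array 2. Oct4 (-0.11), Eomes (0.14) and cadherin 1 (0.47) lay nearer to 0 or above it. Sox2 (-2.35), keratin 8 (-1.95), Utf1 (-0.95) and Cdx1 (-0.58) were below 0 on both arrays, with adjusted p above 0.05. Cdx1 entered the list by the start of its name, and its use as a marker of this stage was not checked. Its signals were only 171 to 302, and its mean ratio is the list median of -0.58. The summed signal of the 7 spots was 20496 and 23029 in LIF-siRNA and 27663 and 33703 in scrambled siRNA. The list of cumulus and granulosa cell markers had 4 spots, of which 0 passed a signal of 1000. Its summed signal was 970 and 989 in LIF-siRNA against 527 and 389 in scrambled siRNA. Inhibin beta-B (1.80) and pentaxin related gene (1.17) were above 0 on both arrays. Tumor necrosis factor induced protein 6 (-0.20) had opposite signs, and inhibin beta-C was dim and not tested. The blood and liver list of 5 spots, all hemoglobins, summed to 1899 and 1762 in LIF-siRNA against 4247 and 3745 in scrambled siRNA, and the hemoglobin X alpha-like spot held most of that signal. The part of these lists in the ratios below was not tested, and in RNA of whole embryos fewer cells of a type and less RNA per cell cannot be told apart.

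The members were bright spots. With the signal averaged over arrays, 1000 was passed in at least 1 channel by 31 of the 40 members (77.5%), against 3532 of the 8735 gene spots (40.4%). The median member signal was 3363 and 3371 in Cy5 and 3761 and 3854 in Cy3 on arrays 1 and 2, where the median of all gene spots lay between 470 and 490. The test took spots that stood well above background on each array in Cy3, Cy5 or both, which took in 37 members and 8079 probes in all. The 3 members that were not tested were dim. Ndufv1, a flavoprotein subunit of complex I, was below background in every channel, and its ratio rests on substituted signals and measures nothing. Cox6a2, the heart and muscle isoform of a complex IV subunit, gave 18.1 and 17.9 in LIF-siRNA and 30.3 and 54.4 in scrambled siRNA, and was well above background in scrambled siRNA on array 2 only. Ucp1, the uncoupling protein of brown fat, gave between 17.4 and 31.7 in all 4 channels.

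The members lay on both sides of 0. The median log2 ratio of the 37 members tested was 0.00025, with quartiles of -0.34 and 0.26, and that of all probes tested was -0.0040, with quartiles of -0.40 and 0.39. The member median was 0.04 on array 1 and -0.03 on array 2, and -0.13 under median centring without lowess, where that of all probes was -0.02. The members ran from -1.36 for Aco1 to 1.18 for Cox8b. The log2 ratio was above 0 on both arrays for 15 members (40.5%), where 36.7% of all probes tested were, and below 0 on both arrays for 13 members (35.1%), where 36.8% of all probes were. The other 9 members had opposite signs on the arrays. Under median centring 11 members (29.7%) were higher and 17 (45.9%) lower on both arrays, where 34.3% and 37.1% of all probes were. The plot of all members by array shows that higher and lower spots occurred within the same complex.

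**Figure D1:**
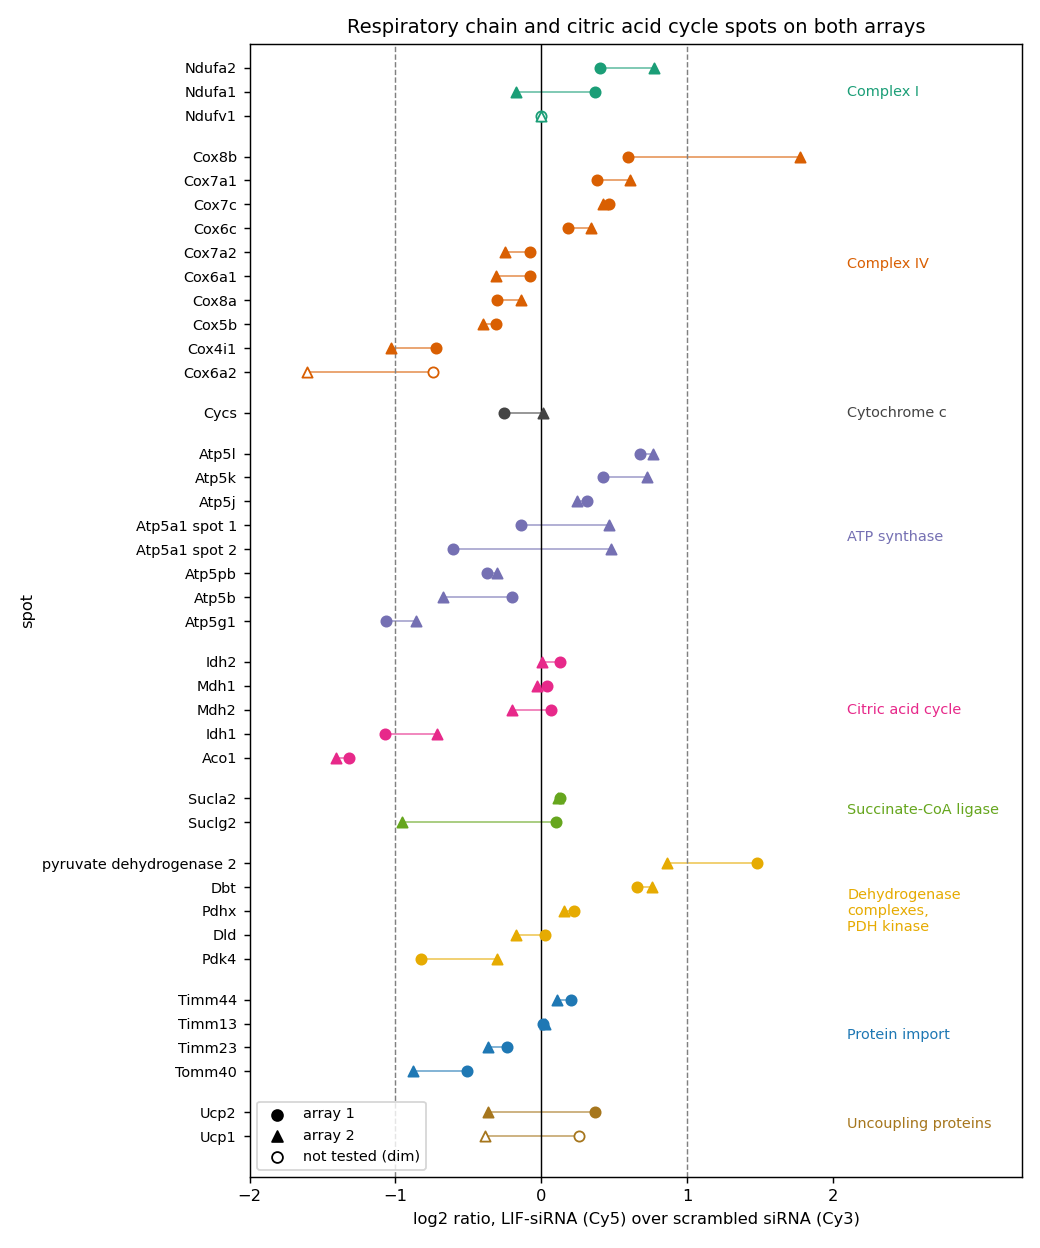
Log2 ratio of LIF-siRNA (Cy5) over scrambled siRNA (Cy3) for the 40 spots, grouped by role. Circles are array 1 and triangles array 2, open symbols mark the 3 spots that were not tested, and dashed lines mark a ratio of 2 and of 0.5. Aco1 lay beyond the lower line on both arrays, and no member tested lay beyond the upper line on both.

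With 2 arrays no member passed the test after adjustment in the main setting, and the count depended on the setting. The adjusted p of limma was below 0.05 for 0 of the 37 members and for 0 of the 8079 probes (0%), and the smallest adjusted p of any probe was 0.0580. Under other settings the adjusted p was below 0.05 for 1 member, Aco1, with normexp and loess and also with both channels well above background, for 6 members with median centring and for 10 with an intensity trend, where 1.83%, 3.09%, 17.7% and 14% of all probes were called. Before adjustment 11 members (29.7%) had p below 0.05, where 30.7% of all probes did. The 6 higher ones (16.2%, against 15.9% of all probes) were Atp5k, Atp5l, Cox8b, Dbt, Ndufa2 and pyruvate dehydrogenase 2. The 5 lower ones (13.5%, against 14.8%) were Aco1, Atp5g1, Cox4i1, Idh1 and Tomm40. Under median centring 2 members were higher before adjustment (5.41%, against 15.1% of all probes) and 6 lower (16.2%, against 14.1%). Thresholds of 2 and 0.5 for the ratio and of 1000 for the signal in either channel, taken from the methods, were applied here to the geometric mean ratio and the mean signal of both arrays. By these criteria 0 of the 40 members were higher (2.16% of the gene spots were) and 1 was lower, Aco1 (2.19% of the gene spots were). The number lower depended on the setting. It was 4 of 37 under median centring (10.8%, against 3.24% of all probes), 2 without array 1 (3.05% of the gene spots) and 3 without array 2 (2.47%). Without the signal threshold in the main setting 2 members were higher, Cox8b and pyruvate dehydrogenase 2 (6.55% of the gene spots were), and 2 lower, Aco1 and Cox6a2 (5.13%). On simulated arrays with the spread of all probes, 200 of 8079 probes were set to change. The test called 0 of the 200 at 2-fold, and at 4-fold 166 of them and 9 unchanged probes. These counts depend on the number of probes set to change, which is not known for the real arrays, so they do not give the power here. On the real arrays solute carrier family 25 member 10, with a log2 ratio of -2.09, had a limma adjusted p of 0.0580. The limit for the members alone was not simulated.

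The ratios of the members lay close together on both arrays. Across the 37 members the log2 ratios of both arrays gave r = 0.742 (Pearson) and rho = 0.745 (Spearman), and across all probes tested 0.639 and 0.632. Both are correlations across spots that share the same arrays and dyes, and spots are not independent replicates. The median SD between the arrays was 0.15 for the members and 0.25 for all probes, and 0.11 and 0.19 when only spots past a signal of 1000 were taken. These differences were not tested.

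**Figure D2:**
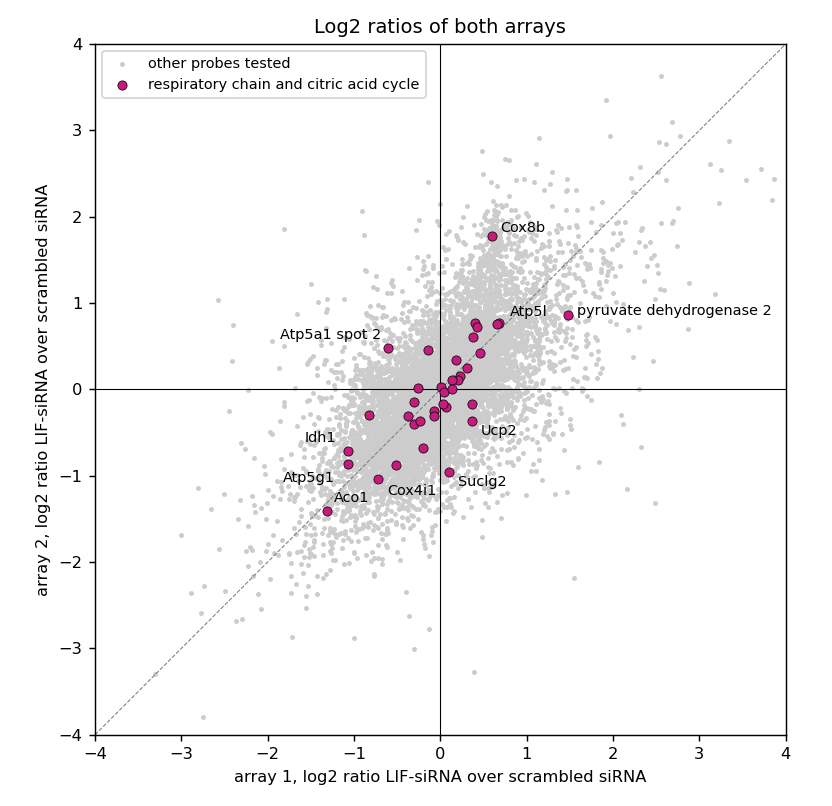
Log2 ratio of LIF-siRNA over scrambled siRNA on array 1 (x axis) and array 2 (y axis) for the 37 members tested (large points) and the other probes tested (small points), with the line of equal values dashed. Aco1, Atp5g1, Idh1 and Cox4i1 lay low on both arrays and pyruvate dehydrogenase 2 high on both, while Ucp2, Suclg2 and the dim spot of Atp5a1 had opposite signs.

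Among the enzymes named for the citric acid cycle, the lowest ratios belonged to a pair of cytosolic enzymes. Aco1 is the cytosolic aconitase, which also serves as an iron regulatory protein that binds transcripts when it lacks its iron-sulfur cluster. Its signal was 1127 and 1187 in LIF-siRNA and 2809 and 3150 in scrambled siRNA on arrays 1 and 2. Both LIF-siRNA signals were far below both scrambled ones, and the groups did not overlap. Such separation also occurred at a small ratio, as for Sucla2 (0.12), so it does not measure the size of a change. Its share over all probes was not counted, here or for the spots below. The log2 ratio of Aco1 was -1.32 and -1.41, with a mean of -1.36 ± 0.06 (SD, n = 2) and a 95% interval from -1.90 to -0.82 (limma adjusted p = 0.0607), a 2.57-fold lower level. This was the lowest ratio of all members tested.

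Idh1, the cytosolic isocitrate dehydrogenase that makes NADPH, gave 3407 and 4827 in LIF-siRNA and 7162 and 7916 in scrambled siRNA. It too was dimmer in LIF-siRNA on both arrays, with a mean log2 ratio of -0.89 ± 0.25 (SD, n = 2, limma adjusted p = 0.0922). The mitochondrial isoform Idh2, which also uses NADP+, was among the brightest members, at 13892 and 13689 in LIF-siRNA and 12683 and 13627 in scrambled siRNA. Its log2 ratio was 0.07 ± 0.09 (limma adjusted p = 0.846), with a sign that turned when arrays were centred on the median without lowess. Mitochondrial malate dehydrogenase (Mdh2) had a ratio of -0.07 and the cytosolic one (Mdh1) of 0.01, with 95% intervals from -0.63 to 0.49 and from -0.53 to 0.54.

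Succinate-CoA ligase joins the cycle to the synthesis of ATP or GTP through either of 2 beta subunits. Sucla2, the ADP-forming subunit, was bright and nearly equal in all channels, between 15221 and 16657, with a log2 ratio of 0.12 ± 0.01 (SD, n = 2) that turned to the other sign under the same median centring. Suclg2, the GDP-forming subunit, gave 1149 and 760 in LIF-siRNA and 1072 and 1473 in scrambled siRNA. The arrays went opposite ways, at 0.10 and -0.95, so its mean of -0.43 rests on array 2.

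The 8 spots of ATP synthase, the enzyme that turns the proton gradient into ATP, included 3 that were lower on both arrays, 3 higher on both and 2 of opposite sign. These shares are near those of all probes, 36.8%, 36.7% and 26.5%. Atp5g1 encodes subunit c, which forms the rotating ring in the membrane and is made from several genes with the same mature protein. Its signal was 2723 and 3242 in LIF-siRNA and 5701 and 5887 in scrambled siRNA. The log2 ratio of -0.96 ± 0.15 (SD, n = 2, limma adjusted p = 0.0805) was the lowest of the complex, a 1.95-fold lower level just short of the ratio of 0.5.

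The small membrane subunits g (Atp5l) and e (Atp5k), which help ATP synthase to form dimers, lay on the other side. Atp5l gave 6610 and 7454 in LIF-siRNA and 4142 and 4378 in scrambled siRNA, a log2 ratio of 0.72 ± 0.07 (SD, n = 2, limma adjusted p = 0.105). For Atp5k the signals were 8238 and 9371 against 6130 and 5682, a ratio of 0.57 ± 0.21 (limma adjusted p = 0.159). Neither group overlapped the other in these spots, and the changes of 1.65-fold and 1.49-fold did not pass the test.

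The catalytic beta subunit (Atp5b) had a ratio of -0.44, from -0.20 on array 1 and -0.68 on array 2, the stalk subunit b (Atp5pb) of -0.34 and the coupling factor named subunit F (Atp5j) of 0.28, all with adjusted p above 0.05. The alpha subunit (Atp5a1) had 2 spots. Its bright spot gave -0.14 on array 1 and 0.46 on array 2, and its dim spot, at signals between 136 and 224, gave -0.60 and 0.48. Both spots thus turned between arrays in the same direction, and their means of 0.16 and -0.06 differed in sign.

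Promoters of these genes are shown because Atp5l and Atp5k were the highest members of the ATP synthase, while Aco1 and Atp5g1 had the lowest ratios among the members tested. Each line gives the 250 bases before the annotated start, 5′ to 3′ along the gene, from RefSeq. Capitals mark the core of the site of NRF-1, a factor known to bind promoters of respiratory genes, in the letters GCGCATGC or, on the other strand, GCATGCGC.
Aco1 (GRCm38.p6, chr4:40143015-40143264, plus strand): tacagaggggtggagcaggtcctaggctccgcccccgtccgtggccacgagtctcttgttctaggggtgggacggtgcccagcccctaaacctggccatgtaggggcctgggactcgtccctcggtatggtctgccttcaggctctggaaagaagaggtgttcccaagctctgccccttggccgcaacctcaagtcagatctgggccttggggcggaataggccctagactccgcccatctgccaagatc
Atp5g1 (GRCm38.p6, chr11:96075632-96075881, minus strand): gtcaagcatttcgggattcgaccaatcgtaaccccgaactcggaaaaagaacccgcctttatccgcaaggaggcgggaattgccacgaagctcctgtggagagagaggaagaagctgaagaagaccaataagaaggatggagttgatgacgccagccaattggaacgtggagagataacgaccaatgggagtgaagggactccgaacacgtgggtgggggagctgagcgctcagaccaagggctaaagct
Atp5l (GRCm38.p6, chr9:44920743-44920992, minus strand): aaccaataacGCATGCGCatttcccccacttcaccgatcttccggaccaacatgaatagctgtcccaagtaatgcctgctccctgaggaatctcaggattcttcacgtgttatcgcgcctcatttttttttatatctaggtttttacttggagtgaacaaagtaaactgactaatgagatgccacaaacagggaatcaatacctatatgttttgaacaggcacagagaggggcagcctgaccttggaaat
Atp5k (GRCm38.p6, chr5:108434400-108434649, minus strand): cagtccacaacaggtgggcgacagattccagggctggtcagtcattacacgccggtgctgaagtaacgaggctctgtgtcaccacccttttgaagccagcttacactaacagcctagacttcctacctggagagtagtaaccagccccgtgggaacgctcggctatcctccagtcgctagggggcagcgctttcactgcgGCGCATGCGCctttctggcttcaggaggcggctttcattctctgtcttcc
Atp5k held both strands' cores, which overlap and end 42 and 40 bases before the start, and Atp5l held 1 ending 232 bases before it. Neither Aco1 nor Atp5g1 held these letters.

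A promoter of 300 bases, from 250 before to 50 after the start, was found for 32 of the 38 member genes with a symbol. The NRF-1 core occurred in 5 of them (15.6%), Atp5k, Atp5l, Cox6a1, Cycs and Timm13, and in 824 of the 27025 genes with such a promoter (3.05%). Their mean log2 ratios were 0.57, 0.72, -0.19, -0.12 and 0.02, so the 5 genes lay on both sides of 0. The core of GABP sites, CCGGAAGT or ACTTCCGG, occurred in 2 members (6.25%), Cox8a and Timm23, with ratios of -0.22 and -0.30, and in 4.31% of all genes. The core of estrogen-related receptor sites, TCAAGGTCA or TGACCTTGA, occurred in 0 of the 32 and in 0.466% of all genes. These are counts of letters and not of bound factors.

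Complex IV, cytochrome c oxidase, passes electrons to oxygen, and had 10 spots, of which 9 were tested. Each of the 9 kept its sign on both arrays, 4 above and 5 below 0, where 73.5% of all probes tested had 1 sign on both. Cox4i1, the common isoform of subunit IV, which is the largest of the nucleus-encoded subunits, was the lowest. It gave 3966 and 3808 in LIF-siRNA and 6555 and 7786 in scrambled siRNA, without overlap, and a log2 ratio of -0.88 ± 0.22 (SD, n = 2, limma adjusted p = 0.0919). Cox5b, Cox8a, Cox6a1 and Cox7a2, also subunits of most tissues, ran from -0.36 to -0.16, while Cox6c (0.26) and Cox7c (0.44) lay above 0. Cox7c, at signals between 11874 and 16850, had values of 0.46 and 0.43 on the arrays and an adjusted p of 0.219.

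The isoforms that heart and skeletal muscle use in place of the common ones had dim spots. Cox8b gave 523 and 667 in LIF-siRNA and 347 and 195 in scrambled siRNA. The array ratios, 0.59 and 1.78 on the log2 scale, gave the highest mean of all members, 1.18 ± 0.84 (SD, n = 2, limma adjusted p = 0.105), and the difference between arrays was as large as that mean. Cox7a1 had signals from 200 to 335 and a ratio of 0.50 (limma adjusted p = 0.194). Their common counterparts had ratios of -0.22 for Cox8a (-0.30 and -0.14 on arrays 1 and 2) and -0.16 for Cox7a2 (-0.08 and -0.25). The third muscle isoform, Cox6a2, was lower in LIF-siRNA on both arrays at signals that were mostly not above background. The list of 12 muscle gene spots, with 4 past a signal of 1000, had a median ratio of 0.03, with 6 spots higher and 5 lower on both arrays. The 4 brighter spots did not lie near that median as a group. They were skeletal alpha actin (-1.33), cardiac alpha actin (-1.90), a fast myosin light chain (0.01) and a spot of fast troponin I (0.83). Another spot of fast troponin I, which was dim, gave -0.26. The summed signal of the list was 17420 and 12813 in LIF-siRNA and 15163 and 15286 in scrambled siRNA. The part of the muscle list in the ratios of Cox8b and Cox7a1 was not tested.

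Cytochrome c (Cycs), which carries electrons to complex IV and triggers cell death when released, gave 6055 and 6637 in LIF-siRNA and 7228 and 6585 in scrambled siRNA. The groups overlapped and the mean ratio was -0.12. Of complex I, where NADH enters the chain, 2 accessory subunits were tested. Ndufa2 gave 2174 and 3176 in LIF-siRNA and 1646 and 1861 in scrambled siRNA, a log2 ratio of 0.59 ± 0.26 (SD, n = 2, limma adjusted p = 0.160). Ndufa1, at signals of 129 to 176, was higher on array 1 and lower on array 2 and had a mean ratio of 0.10.

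**Figure D3:**
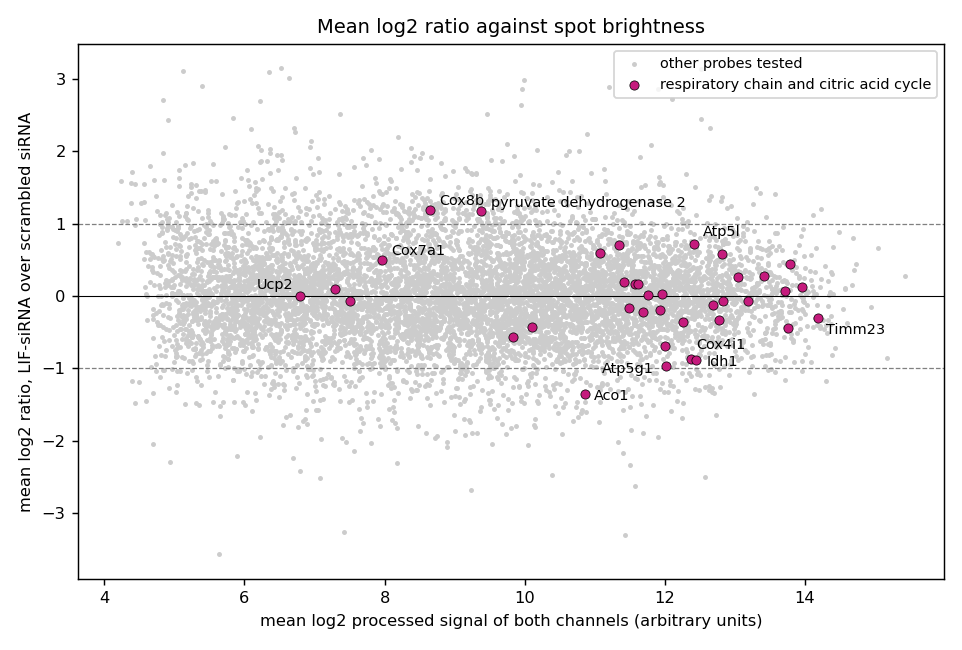
Mean log2 ratio of LIF-siRNA over scrambled siRNA (y axis) against the mean log2 processed signal of both channels (x axis) for the members tested (large points) and the other probes tested (small points). Dashed lines mark a ratio of 2 and of 0.5. Of the 2 members above the upper line, Cox8b and pyruvate dehydrogenase 2, neither reached a mean signal of 1000, and Aco1 was the 1 member tested below the lower line.

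The spot named pyruvate dehydrogenase 2 gave 1122 and 870 in LIF-siRNA and 401 and 478 in scrambled siRNA. It was brighter in LIF-siRNA on both arrays, with a log2 ratio of 1.17 ± 0.44 (SD, n = 2) and a 95% interval from 0.52 to 1.82 (limma adjusted p = 0.0781). Its ratio was 2.25, and its mean LIF-siRNA signal of 996 kept it just under the signal threshold of 1000. The name does not settle which gene of the pyruvate dehydrogenase system the clone holds, so no symbol was given to it.

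Pdk4, a kinase that switches pyruvate dehydrogenase off, gave 582 and 929 in LIF-siRNA and 1033 and 1145 in scrambled siRNA. Its ratio was -0.83 on array 1 and -0.30 on array 2, with a mean of -0.56 ± 0.37 (SD, n = 2, limma adjusted p = 0.191). Pdhx, which holds the dehydrogenase subunit E3 in the complex, had a ratio of 0.19, and E3 itself (Dld), which is shared with other complexes, of -0.07. Dbt, the E2 core of the complex that degrades branched-chain amino acids, gave 3724 and 2926 in LIF-siRNA and 2363 and 1726 in scrambled siRNA. That is a log2 ratio of 0.71 ± 0.07 (SD, n = 2, limma adjusted p = 0.108), with the groups apart on both arrays. Among Pdhx, Dld and Dbt the ratios thus ran from -0.07 to 0.71.

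Of the import machinery, Tomm40, the channel of the outer membrane, was the lowest. It gave 3348 and 3089 in LIF-siRNA and 4775 and 5678 in scrambled siRNA, a log2 ratio of -0.70 ± 0.26 (SD, n = 2, limma adjusted p = 0.122). Timm23, the channel of the inner membrane and the brightest member in scrambled siRNA at 19809 and 21731, had a ratio of -0.30. Timm44, which tethers the import motor, and Timm13, a small chaperone between the membranes, had ratios of 0.16 and 0.02, each with the same sign on both arrays. Under median centring Timm44 fell to 0.0054 ± 0.22 (SD, n = 2). Ucp2, an uncoupling protein of many tissues, had signals of 90.7 to 134 and ratios of 0.37 and -0.37.

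Other mitochondrial genes were read from 7 lists matched by name. The list for mitochondrial ribosomal proteins matched 0 spots. All 3 antioxidant enzymes were lower in LIF-siRNA on both arrays, as 36.8% of all probes were, with ratios of -0.89 for glutathione peroxidase 4, which is also found outside mitochondria, -0.83 for superoxide dismutase 2 and -0.74 for peroxiredoxin 5, whose arrays gave -1.10 and -0.39. Each had an unadjusted limma p below 0.05 and an adjusted p above it (14.8% of all probes were lower with such a p), as Aco1, Atp5g1, Idh1, Cox4i1 and Tomm40 did. Superoxide dismutase 2, which removes superoxide in the matrix, gave 7292 and 8771 in LIF-siRNA and 14246 and 14110 in scrambled siRNA.

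The 8 spots of fatty acid oxidation had a median ratio of -0.42, with 6 lower and 1 higher on both arrays, and 3 of the lower ones had an unadjusted p below 0.05. Over all probes tested 36.8% were lower on both arrays, 36.7% were higher on both, and 14.8% were lower with an unadjusted p below 0.05. The 3 spots of this list were hydroxyacyl-CoA dehydrogenase type II (-1.22), carnitine palmitoyltransferase 1 of liver (-0.72), the enzyme that admits fatty acids to mitochondria, and the short-chain acyl-CoA dehydrogenase (-0.58). The 7 spots of the SLC25 carrier family had a median of -0.32, with 4 lower and 2 higher on both arrays. They ran from -2.09 for member 10 to 0.82 for member 17, a peroxisomal member, and member 4, the ADP and ATP exchanger that serves ATP synthase, had -0.93. The 5 chaperones and assembly factors had a median of -0.30 and neither they nor the 3 spots of transaminases and malic enzyme held one with an unadjusted p below 0.05. The median of the latter, -0.21, was 0.17 on array 1 alone and -0.52 on array 2 alone.

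The 6 spots of regulators of mitochondrial genes had a median of 0.04, which was 0.09 on array 1 alone and 0.14 with a mean per gene name. GABP beta 1 had a ratio of 0.60 and mitochondrial transcription factor A of 0.25. The 2 spots of NRF-1 gave -0.57 and -0.06, so the clones of this gene differed by more than the SD between arrays of either, and the coactivator PGC-1 was dim and gave -1.22 and 0.00 on the arrays. None of the spots in these lists had an adjusted p below 0.05, and the difference between a list and the members was not tested.

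**Figure D4:**
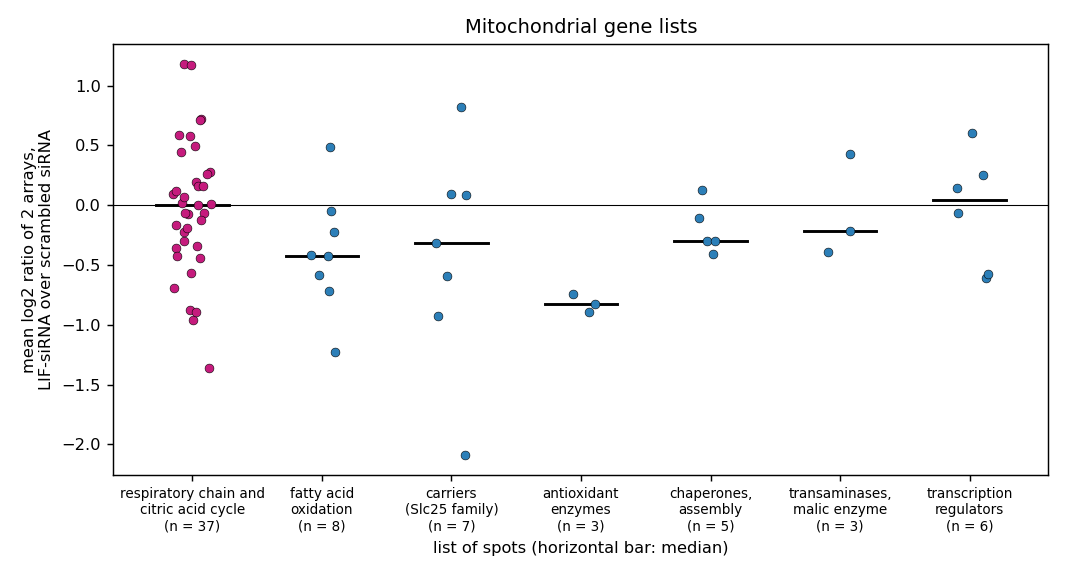
Mean log2 ratio of 2 arrays, LIF-siRNA over scrambled siRNA, for each spot of the respiratory chain and citric acid cycle and of 6 other mitochondrial lists, with the median as a horizontal bar and points spread sideways for legibility. The members lay on both sides of 0 around a median of 0.00025, and all 3 antioxidant spots and 7 of the 8 fatty acid oxidation spots had means below 0.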

How the data were processed

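Two-color cDNA arrays were scanned and extracted by the authors with Agilent Feature Extraction. The deposited intensity columns are background-subtracted, dye-normalized processed signals. The log10 ratios that the authors deposited, LIF-siRNA (Cy5) to scrambled siRNA (Cy3), had been normalized by rank-consistent lowess and were turned to log2. The deposited log2 series table holds the brightness of an array (r of 0.998 with the mean log2 signal), not a ratio, and was not used. Control spots and 23 gene spots with an outlier mark were left out.

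The 8079 spots that were well above background on each array in Cy3, Cy5 or both entered an intercept-only, two-sided fit in R 4.3.3 (limma 3.58.1, lmFit then eBayes), with Benjamini-Hochberg adjustment over all of them. The fit was checked on simulated data. The thresholds for ratio and signal were applied to the geometric mean ratio and mean signal of both arrays, a choice made here, over 8712 spots. Tables were made with pandas 2.3.3 and numpy 2.4.6 in Python 3.11.15.

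The members and lists were chosen with earlier results of these data known. Members named are those past the criteria, the 6 highest and 6 lowest ratios with 1 sign on both arrays, and the extremes of each subgroup, with other members added to complete the roles. Symbols were assigned from the gene names in the files, for 38 of 39 names, and all 38 were found in RefSeq (GRCm38.p6). Names that only share letters with a phrase, a coxsackievirus receptor and a transferrin receptor, were left out. The alternatives were normexp (offset 50) with loess, median centring, other filters on dim probes, outliers kept, a mean per gene name, an intensity trend, the methods' t-test, other forms of the criteria, and each array left out.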

Additional observations from a re-analysis of the deposited data

How the results depend on the processing

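No paired analysis was possible because the main fit already is one, on ratios that pair both groups within 1 array, which leaves no further block to add. The number of members with a limma adjusted p below 0.05 was 0 in the main setting, without a filter on dim probes, with outliers kept, by the methods' t-test and with a mean per gene name. It was 1 (Aco1) with normexp and loess and also with both channels well above background, 6 with median centring (Aco1, Atp5g1, Cox4i1, Cox8b, Idh1 and pyruvate dehydrogenase 2) and 10 with an intensity trend, where 148 (1.83%), 234 (3.09%), 1424 (17.7%) and 1133 (14%) of all probes were called. The adjusted p of Aco1 ran from 0.000249 to 0.456 over 7 alternatives. Members higher by the criteria numbered 0, and 2 without the signal threshold. Members lower numbered 1, 4 with median centring (Aco1, Atp5g1, Cox4i1 and Idh1, where 3.24% of all probes were lower) and 2 without the signal threshold. With 1 array left out, members higher ranged from 0 to 1 and members lower from 2 to 3, with 2 on array 2 alone (Aco1 and Cox4i1, where 3.05% of all spots were lower) and 3 on array 1 alone (Aco1, Atp5g1 and Idh1, where 2.47% were). The 1 higher member, pyruvate dehydrogenase 2, was so on array 1 alone, as 2.02% of all spots were. Median centring moved the median of the members to -0.13 and that of all probes to -0.02, and turned Idh2 to -0.077 and Sucla2 to -0.031. It also moved the members with an unadjusted p below 0.05 from 6 higher and 5 lower to 2 higher (5.41%, against 15.1% of all probes) and 6 lower (16.2%, against 14.1%). The cause of these changes was not tested. Of the 85 values of the 17 named members under 5 alternatives that kept both arrays, 83 kept their direction. With 1 array left out, the sign turned for 2 of 34 values, Ndufa1 (-0.17 on array 2 alone) and Suclg2 (0.10 on array 1 alone). All values rest on 2 arrays, which limits their precision, and a cDNA clone may also bind transcripts of related genes.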
